A study of Mus spretus with 12 samples.

Results

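Th, Dbh, Pnmt, Chga, Chgb and Dlk1 are 6 genes known as markers of the chromaffin cells of the adrenal medulla, and they were followed here on arrays of mouse liver RNA. They were selected on their measured signal, chosen by its loss on the arrays of mice fed p,p'-DDE, so every comparison that holds those arrays is given for them as a description, without a test. All probes of the array design that carry one of the 6 gene names were taken. They made up 18 of the 59305 spots that were not controls, and 6 of the 37074 gene names. All 6 genes were among the 18678 genes tested, and for Dbh, Pnmt and Chgb this was so only through the groups in which they were high.

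Liver RNA of male mice of the inbred strain SPRET/EiJ (Mus spretus) was hybridised to 12 one-colour arrays, 4 per group. All mice were 20 months old at the start, 22 months old at sampling, and ate Teklad rodent diet with corn oil for 60 days. The control group ate this diet alone. The DDE group received it with 450 mg/kg p,p'-DDE, a long-lived metabolite of the insecticide DDT. The PXDDE group was given the same p,p'-DDE diet, and must of Pedro Ximenez grapes in its water brought 85 mg/L polyphenols and 31 g/L of glucose and fructose in equal parts. No group received must without p,p'-DDE. The labels do not settle whether each array held RNA of 1 mouse or of several, so the p-values measure the spread between these arrays, which may be technical.

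Chromaffin cells make adrenaline from tyrosine. Tyrosine hydroxylase (Th) makes L-DOPA, which Ddc turns into dopamine, dopamine beta-hydroxylase (Dbh) makes noradrenaline, and phenylethanolamine N-methyltransferase (Pnmt) methylates it to adrenaline. The amines are packed into dense-core granules with the acidic proteins chromogranin A (Chga) and chromogranin B (Chgb). Dlk1 is a membrane protein related to the Notch ligands, imprinted and expressed from the paternal allele, and found in the adrenal gland as well as in fetal liver.

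The probes are 60 bases long and were designed for the laboratory mouse. Their sequences are shown because the findings on Th, Dbh and Dlk1 depend on which of a gene's probes is read. The number in each name is the probe's first base in its design transcript, and coordinates are those of the mm9 build in the files. Letters are all lower case, since the whole probe is the detector and no part is singled out. The 4 probes that start earliest in the transcripts of Th, Dbh, Pnmt and Dlk1 are shown whole, and the other 5 by their first 30 bases. The files do not annotate exons or UTRs, so where a probe lies in its gene is not stated.
Th probe 1076, chr7:150080370-150080581, minus strand: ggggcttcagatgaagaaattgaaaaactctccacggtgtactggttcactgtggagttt
Th probe 1675, chr7:150078703-150078762, minus strand: ccaggatggtcctgcattcctcctgccctt
Dbh probe 1673, chr2:27037081-27037140, plus strand: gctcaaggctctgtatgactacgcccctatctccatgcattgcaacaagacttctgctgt
Dbh probe 2222, chr2:27038665-27038724, plus strand: ggtggtgacttgtgttagtgtatgccgtga
Pnmt probe 382, chr11:98248798-98248857, plus strand: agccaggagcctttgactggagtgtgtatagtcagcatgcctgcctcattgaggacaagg
Chga probe 1727, chr12:103803083-103803142, plus strand: acaggcagctttctagaagtttctcttcca
Chgb probe 2627, chr2:132620703-132620762, plus strand: tagcgtgacttgtagcgtattcttcctgca
Dlk1 probe 1220, chr12:110698428-110698487, plus strand: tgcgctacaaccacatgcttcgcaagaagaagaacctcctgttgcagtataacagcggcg
Dlk1 probe 1513, chr12:110698721-110698781, plus strand: tacacatattgtcttgtgttgctggtgcca
The genomic span of Th probe 1076 is 212 bases, longer than the probe. The Chgb probe was printed in 10 spots per array and every other probe in 1.

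Each value below is log2 of the processed signal minus log2 of the array's 75th percentile, so 0 is the level of a fairly bright spot. A level below the dimmest spot that the scanner software marked as well above background on that array, here called the floor, is only a bound. The floor lay between -4.54 and -4.29 on the control arrays, between -4.78 and -4.55 on the DDE arrays and between -5.02 and -4.78 on the PXDDE arrays. Between 50.1% and 52.0% of spots were well above background on each array and no spot was saturated. The 75th percentile itself was 535.1 ± 32.2 signal units on control arrays, 610.8 ± 46.9 on DDE arrays and 702.2 ± 7.63 on PXDDE arrays (SD, n = 4 each). In these bulk samples, fewer cells of a type and less RNA per cell cannot be told apart.

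The liver label held: all 10 hepatocyte markers, Alb and Ttr among them, were well above background and were tested. The label of chromaffin cells was carried only in part by other genes known from that lineage. Phox2a, Insm1 and Isl1, transcription factors of sympathoadrenal cells, were not well above background on any of the 12 arrays, nor was Slc18a2, a vesicular amine transporter found mainly in neurons. Slc18a1, the vesicular amine transporter of rodent chromaffin cells, was well above background on all 12 arrays, and its level was higher in DDE than in control, against the direction of the 6 genes. Hand2 was above it on 4 arrays (2 control, 1 DDE and 1 PXDDE), and the noradrenaline transporter gene Slc6a2 on 1 DDE array. The genes are therefore called by their names here.

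The enzymes were well above background on control arrays, lowest on DDE arrays and between the DDE and the control levels on PXDDE arrays. Th, read by probe 1675, stood at -0.22, -0.31, -0.15 and -0.21 on control arrays 1 to 4. It stood at -1.81, -2.18, -1.93 and -1.75 on the DDE arrays and at -0.75, -0.46, -0.48 and -0.54 on the PXDDE arrays. The 3 groups did not overlap, and all 12 arrays were above background. The mean was -0.22 ± 0.0688 in control, -1.92 ± 0.191 in DDE and -0.56 ± 0.131 in PXDDE (SD, n = 4). This put DDE 3.24-fold below control, at 30.9% of it, and PXDDE 2.57-fold above DDE.

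Dbh and Pnmt, the later enzymes of the path, went below background with p,p'-DDE alone. Dbh, read by probe 2222, stood at -2.40, -1.88, -2.18 and -2.22 on the control arrays. It stood at -7.06, -6.89, -6.89 and -6.50 on the DDE arrays, all under the floor, and at -3.05, -2.58, -2.70 and -2.79 on the PXDDE arrays. No DDE array measured the gene, so its level was at least 5.56-fold lower in DDE than in control and at least 3.64-fold higher in PXDDE than in DDE. Pnmt stood at -1.26, -1.06, -1.04 and -1.08 on control arrays, at -5.20, -5.92, -6.13 and -6.17 on DDE arrays and at -2.21, -1.66, -2.21 and -1.71 on PXDDE arrays. None of the 4 DDE arrays was above background for Pnmt, and the groups did not overlap. Its level was at least 11.6-fold lower in DDE than in control and at least 6.49-fold higher in PXDDE than in DDE.

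The granins were measured on every control and PXDDE array, and they differed in how far their level dropped on the DDE arrays. Chga stood at 0.99, 0.88, 0.90 and 1.01 on control arrays, at -0.37, -0.54, -0.65 and -0.47 on DDE arrays and at 0.73, 0.84, 0.82 and 0.77 on PXDDE arrays. All DDE arrays still measured Chga well above background, at 36.7% of control, which is 2.73-fold lower. PXDDE was 2.45-fold above DDE. Chgb stood at 0.84, 0.83, 0.74 and 0.67 on control arrays, at -4.88, -5.21, -5.63 and -5.18 on DDE arrays and at 0.31, 0.25, 0.17 and 0.34 on PXDDE arrays. Chgb was below background on every DDE array, so it was at least 42.7-fold lower there than in control and at least 30.1-fold higher in PXDDE than in DDE.

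The 10 Chgb spots allow the spread within an array to be set beside the spread between arrays. The median SD among the spots of an array was 0.0677 in control and 0.0694 in PXDDE, against SDs between array means of 0.0817 and 0.0778. In DDE, where the probe was below background, it was 0.565 among spots and 0.306 between arrays. An array mean averages 10 spots, so its SD between arrays is not on the same footing as the SD of single spots.

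Dlk1, read by probe 1513, stood at -0.65, -0.60, -0.61 and -0.56 on control arrays, at -3.65, -3.71, -3.51 and -3.81 on DDE arrays and at -1.17, -1.14, -1.27 and -1.21 on PXDDE arrays. It was above background on all 12 arrays, and the groups did not overlap. DDE was 8.37-fold below control, at 11.9% of it, and PXDDE was 5.55-fold above DDE. Of the 3 members measured in every group, Dlk1 had the widest drop in DDE, ahead of Th and Chga.

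**Figure D1:**
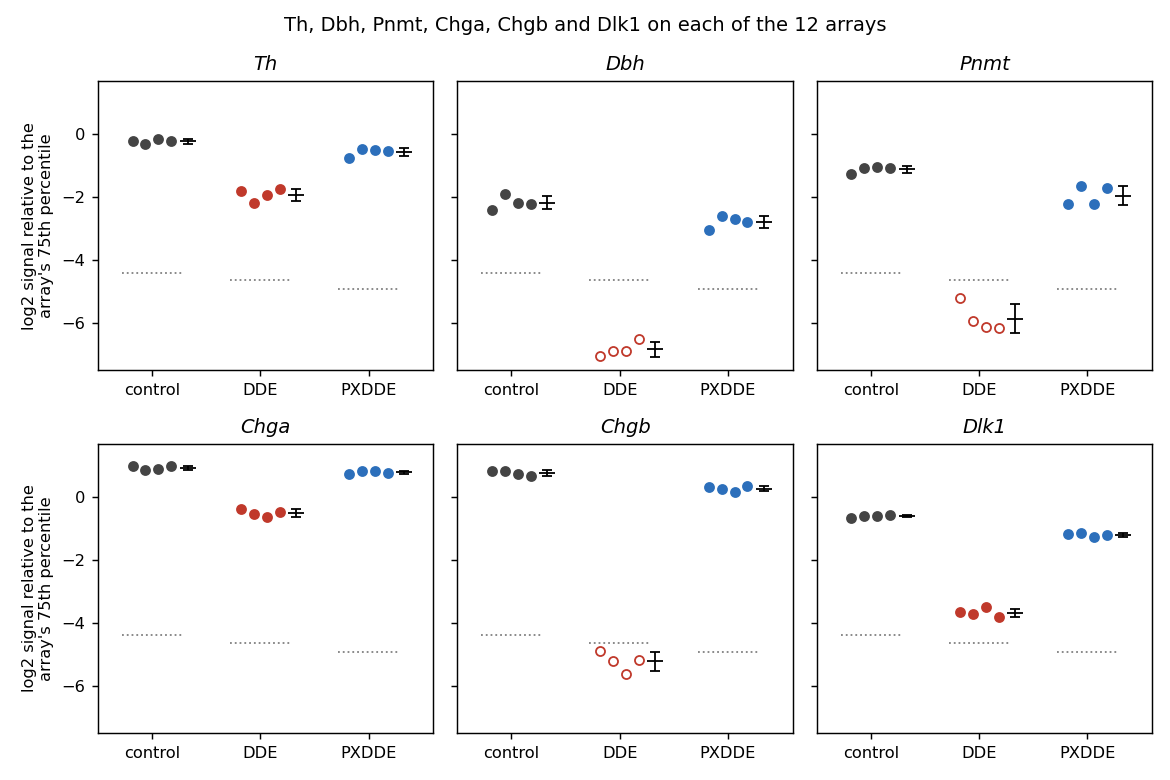
Level of each of the 6 genes on each of the 12 arrays, as log2 of the signal relative to the array's 75th percentile, by group. Filled points were well above background, open points were not, the bar is the mean ± SD of 4 arrays and the dotted line is the mean floor of the group. Dbh, Pnmt and Chgb are open in DDE, and every PXDDE point lies between the DDE and the control points of its gene.

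All 6 genes were lower in DDE than in control without overlap of the groups, which the choice of the genes fixes, where 24.1% of all genes tested were lower without overlap and 26.3% were called lower and 24% higher. All 6 were higher in PXDDE than in DDE without overlap, against 18.3% of all genes without overlap, with 20.2% called higher and 29.6% lower. The median fitted change over the 6 was -3.87 for DDE against control and 3.19 for PXDDE against DDE on the log2 scale, with 3 of the 6 below background in DDE. Over all genes tested these medians were -0.0239 and -0.0403. Of 17271 genes above background on all control and all PXDDE arrays, 23 (0.133%) were above it on no DDE array. Dbh, Pnmt and Chgb were 3 of these 23, and the adrenal cortex genes Cyp11a1, Cyp11b1 and Mgarp another 3.

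The comparison of PXDDE with control asks how near the genes were to the untreated level when must was given with p,p'-DDE. The genes were chosen by their loss on the DDE arrays, so the control arrays are those of the comparison that chose them. The PXDDE arrays counted in the probe filter, which Dbh, Pnmt and Chgb passed only through control and PXDDE. The tests below are therefore not independent of the choice. Choosing by loss against these control arrays favours genes whose control values ran high, which by itself would put PXDDE below control. All 6 genes were lower in PXDDE than in control and all 6 passed the test (limma, adjusted p under 0.05 over 18678 genes), where 70.8% of all genes passed, 39.3% lower and 31.5% higher. Each gene's 4 PXDDE arrays lay below its 4 control arrays, as for 36.3% of all genes. The median change was -0.548 on the log2 scale over the 6 and -0.0577 over all genes.

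Among the enzymes the remaining gap was widest for Pnmt. Pnmt was at 56.0% of control, a change of -0.84 ± 0.20 on the log2 scale (SE, limma adjusted p = 0.00323). Dbh was at 65.4% of control, with a change of -0.61 ± 0.14 (limma adjusted p = 0.00217), and Th at 79.3%, with a change of -0.33 ± 0.094 (limma adjusted p = 0.00721). The 95% intervals of Th (-0.55 to -0.12), Dbh (-0.93 to -0.29) and Pnmt (-1.3 to -0.37) overlapped, and the differences between these genes were not tested. Chgb was at 70.6% of control, with a change of -0.50 ± 0.12 (limma adjusted p = 0.0032). Chga was nearest to control of the 6, at 90.0%, with a change of -0.15 ± 0.06 (limma adjusted p = 0.0393). Dlk1 was at 66.3%, a change of -0.59 ± 0.061 (limma adjusted p = 4.58e-06), and had the smallest p of the 6.

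These changes from control depend on how the arrays are put on one scale, and the PXDDE arrays were brighter as a whole. Before any scaling, the mean signal of Th was 459.2 units in control and 478.3 in PXDDE, and that of Chga was 1028 and 1214. Pnmt went the other way even unscaled, with 248.9 units in control and 185.3 in PXDDE. Centring each array on its median moved the median of all genes to 0.317 for PXDDE against control, and with no scaling it was 0.336. Under these settings Chga turned to a rise of 0.22 (limma adjusted p = 0.00652) and of 0.24 (limma adjusted p = 0.00192), and Th to 0.04 and 0.06, not past the threshold. Dbh (-0.24 and -0.22), Chgb (-0.13 and -0.11), Pnmt (-0.46 and -0.44) and Dlk1 (-0.22 and -0.20) stayed below 0. Of these 8 values, only Pnmt unscaled (limma adjusted p = 0.048) and Dlk1 with median centring (limma adjusted p = 0.0112) passed. Relative to the median of all genes, all 6 genes were lower under all 7 scalings. The values ran from -0.78 for Pnmt to -0.01 for Chga with normexp. The scale used here, median centring and no scaling differ only by a constant per array. Subtracting the median gives the same values for them by construction, apart from rounding, so they are not separate checks. The subtraction also removes the shift between these scales, so it cannot decide which of them holds.

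**Figure D2:**
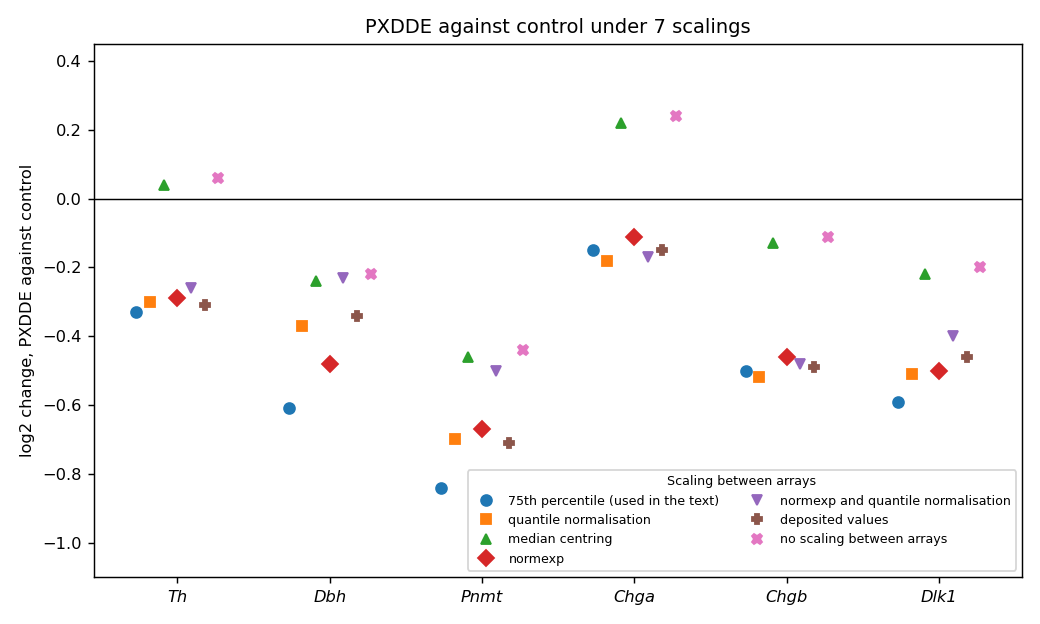
Log2 change of each gene in PXDDE against control under 7 ways of scaling the arrays, with 1 point per gene and setting and a line at 0. Th and Chga cross 0 with median centring and with no scaling, where the median of all genes was 0.317 and 0.336.

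A difference within an array needs no scaling between arrays. The level of each gene minus that of Star, the cholesterol carrier of steroid-making cells, changed from control to PXDDE by -1.37 for Th, -1.65 for Dbh, -1.87 for Pnmt, -1.19 for Chga, -1.54 for Chgb and -1.63 for Dlk1 on the log2 scale. For Chgb the difference ran from -1.48 to -1.32 on control arrays and from -2.99 to -2.83 on PXDDE arrays. The groups did not overlap for any of the 6. Star, whose own level rose, was chosen for this after its values were seen, which fixes the direction of the differences, so no test is given.

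On the scale used here, the order of the groups was the same within slides. The arrays lay on 5 slides, each scanned in its own pass, and 3 slides held both groups of each comparison. For the genes measured in every group, the change in DDE against control within these slides ran from -3.16 to -2.90 for Dlk1, from -2.04 to -1.53 for Th and from -1.52 to -1.44 for Chga. For PXDDE against control, all 6 genes were lower within each of the 3 slides, from -1.17 to -0.58 for Pnmt and from -0.17 to -0.06 for Chga. For Th and Chga this rests on the scaling. Unscaled, Th on slide 3 was 433.3 units in control and 495.3 in PXDDE, and Chga on slide 2 was 1062 and 1182. Th on slide 2 was lower in PXDDE even unscaled, at 515 and 422.7. The spread between arrays of a group was small for Chga (pooled SD 0.0814) and Dlk1 (0.084), and 69.6% and 67.4% of all genes had a larger one. It was 0.32 for Pnmt, 0.217 for Dbh, 0.188 for Chgb and 0.139 for Th, set against a median of 0.109 over all genes.

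The probes of a gene did not all read it. Th probe 1076 never exceeded background, with means of -6.27 in control, -6.59 in DDE and -6.67 in PXDDE, so the Th result rests on probe 1675 alone. Dbh probe 1673 was likewise never above background, with means of -5.95, -6.73 and -6.15. Whether these probes match the Mus spretus transcripts was not tested. Dlk1 probe 1220 was above background on all control and PXDDE arrays and on 1 of 4 DDE arrays. It stood at -3.25, -3.59, -3.13 and -2.86 in control, at -4.42, -5.88, -6.15 and -4.95 in DDE and at -3.89, -3.22, -3.85 and -3.21 in PXDDE. Both Dlk1 probes were lowest in DDE, and for probe 1220 no fold is given, since 3 of its 4 DDE arrays were below background. The probes differed on PXDDE against control: the groups overlapped for probe 1220, with a change of -0.34, and did not for probe 1513.

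**Figure D3:**
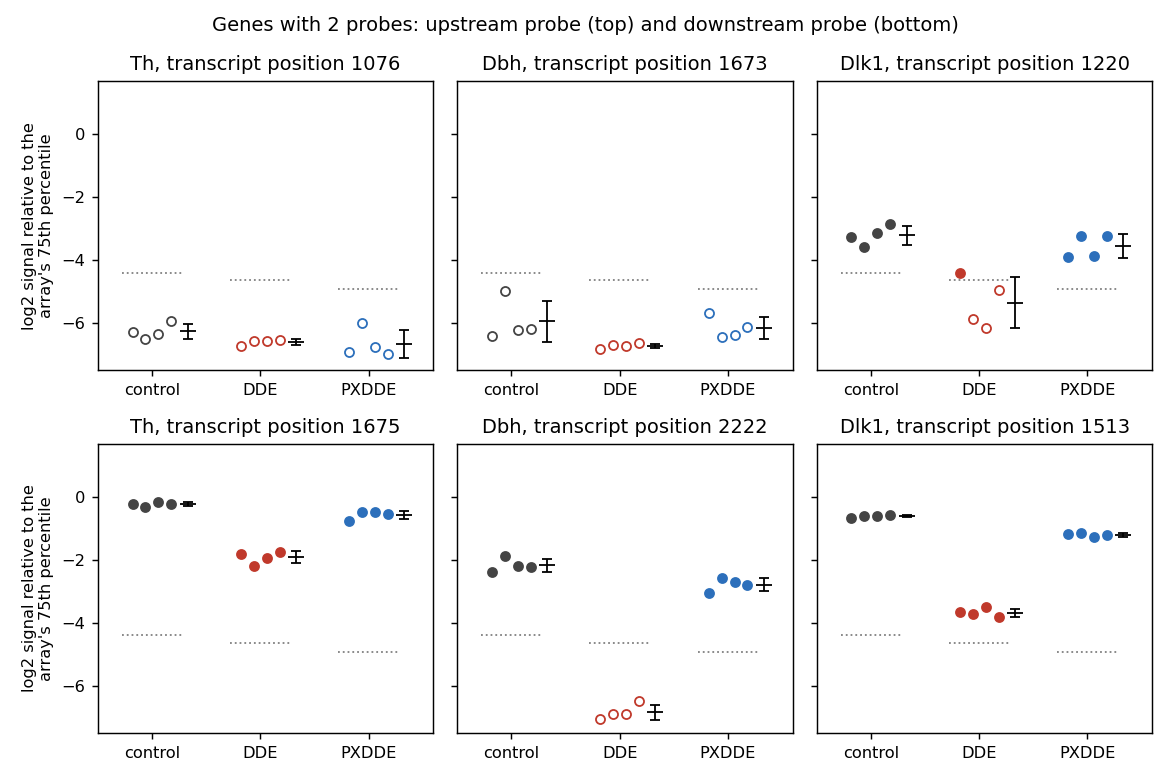
Levels of both probes of Th, Dbh and Dlk1 on the 12 arrays, as log2 of the signal relative to the array's 75th percentile, by group. Filled points were well above background, the bar is the mean ± SD of 4 arrays and the dotted line is the mean floor. Th probe 1076 and Dbh probe 1673 are open on every array, while both Dlk1 probes are lowest in DDE.

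The other genes of catecholamine synthesis and handling did not follow Th, Dbh and Pnmt. Of 13 genes listed, 11 were tested. In DDE against control, where 50.3% of all genes were called, 2 of the 11 rose and 5 fell, with a median change of -0.0621. Slc18a1, the vesicular amine transporter of rodent chromaffin cells, rose 2.21-fold (-1.78 to -0.64, limma adjusted p = 4.49e-07). Pts, an enzyme of the cofactor tetrahydrobiopterin, fell 1.45-fold (limma adjusted p = 0.000147). Cyb561, which supplies electrons to the granule for Dbh, and Ddc fell 1.22-fold each (limma adjusted p = 0.000601 and 0.00604). In PXDDE these 3 were lower still: against DDE, Cyb561 fell 1.47-fold (limma adjusted p = 4.11e-06), Pts 1.44-fold (limma adjusted p = 0.000151) and Ddc 1.25-fold (limma adjusted p = 0.00307). Against DDE 3 of the 11 rose and 4 fell, where 49.8% of all genes were called. Against control 3 rose and 5 fell, where 70.8% of all genes were called, with Slc18a1 2.57-fold above control (limma adjusted p = 3.31e-08). The balance moved with scaling: for DDE against control, median centring gave 6 rises and 1 fall in this list. For PXDDE against control, 4 of the 6 other scalings gave 6 rises and 3 falls, no scaling gave 5 and 3, and normexp kept 3 and 5. The DDE falls of Cyb561 and Ddc were called under 4 of the 6 other scalings and shrank to -0.05 at the smallest. The further fall of Ddc in PXDDE against DDE was also called under 4 of the 6.

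Several granule genes had their lowest level in DDE. Of 26 listed genes for granule proteins, processing enzymes and peptides, 16 were tested and 6 were on no array above background. In DDE against control 8 of the 16 fell and 2 rose, with a median of -0.262, where 26.3% of all genes fell and 24% rose. In PXDDE against DDE 11 rose and 1 fell, with a median of 0.379, where 20.2% of all genes rose and 29.6% fell. The 11 include Pcsk2, which passed the probe filter only through the PXDDE arrays, where it was high. Scg2, secretogranin II, had a level of -1.69 ± 0.21 in control, -3.5 ± 0.19 in DDE and -1.4 ± 0.12 in PXDDE (SD, n = 4). It fell 3.5-fold in DDE (limma adjusted p = 3.08e-07) and was 4.27-fold higher in PXDDE than in DDE (limma adjusted p = 8.93e-08). Cpe, carboxypeptidase E, which trims prohormones, fell 1.55-fold in DDE (limma adjusted p = 3.08e-05) and was 2.03-fold higher in PXDDE than in DDE (limma adjusted p = 6.89e-07).

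Penk, which encodes the enkephalin precursor stored with catecholamines, fell 1.86-fold in DDE (limma adjusted p = 7.89e-05). Pcsk1n, an inhibitor of the processing protease, fell 1.48-fold (limma adjusted p = 0.000978). Resp18 went the other way, 1.4-fold up in DDE (limma adjusted p = 0.0111) and 1.6-fold down in PXDDE against DDE (limma adjusted p = 0.0016). Npy, a peptide cotransmitter, was called lower in DDE by 2.43 on the log2 scale (limma adjusted p = 0.0118), but its DDE arrays spread with an SD of 1.8, only 1 of 4 was above background, and the groups overlapped. Against control, PXDDE had 8 granule genes higher, Pcsk2 among them, and 2 lower, the reverse of all 6 members. Of all genes, 31.5% were called higher and 39.3% lower there. Ptprn2, a granule membrane protein, was 2.74-fold higher (limma adjusted p = 1.43e-05) and Cpe 1.31-fold higher (limma adjusted p = 0.000475), while Penk was 1.43-fold lower (limma adjusted p = 0.00175), a call made under 1 of the 6 other scalings. Median centring turned the split in DDE against control to 4 rises and 5 falls, and the changes of Scg2, Cpe and Ptprn2 named here kept their direction under the 6 other scalings.

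**Figure D4:**
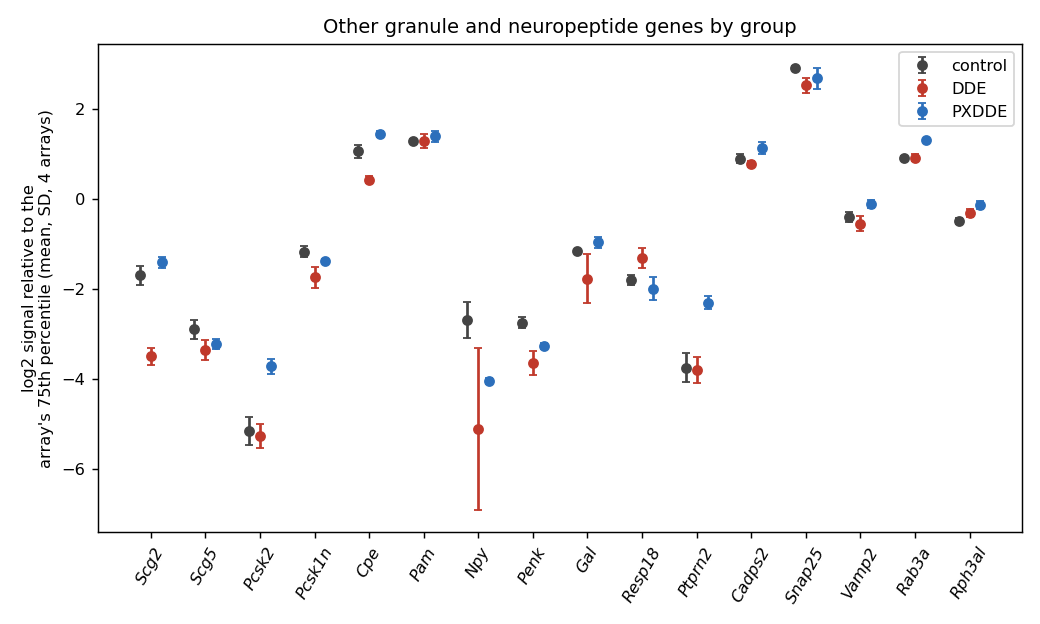
Group means ± SD (n = 4 arrays) of the 16 tested granule and peptide genes, as log2 of the signal relative to the array's 75th percentile, in control, DDE and PXDDE. Scg2 and Cpe are lowest in DDE, Resp18 is highest there, and Npy has a DDE SD of 1.8.

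Of 20 regulators and receptors of chromaffin cells, 10 were tested and 8 were on no array above background. In DDE against control 3 rose and 2 fell, and in PXDDE against DDE 2 rose and 3 fell, shares near the 50.3% and 49.8% called among all genes. Ret, the receptor tyrosine kinase of GDNF family signalling, was above background on DDE arrays alone. Its level there was -2.54 ± 0.18, at least 3.62-fold above control and at least 5.18-fold above PXDDE, the opposite direction to the members. Ret passed the probe filter only through the DDE arrays, where it was high, so no p is given for it. It is still counted among the 3 rises in DDE against control and the 3 falls in PXDDE against DDE. Gata2, a transcription factor of the lineage and of blood cells, fell 1.4-fold in DDE (limma adjusted p = 0.00145) and was 1.41-fold higher in PXDDE than in DDE (limma adjusted p = 0.00126). Against control, 2 were higher and 1 lower in PXDDE, where 70.8% of all genes were called, and with normexp 2 higher and 4 lower. The 1 lower was Ret, which was below background in both groups.

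Of 9 adrenergic receptor genes, which encode the receptors for the amines, 7 were tested. Adra1b, the main alpha-1 receptor of mouse liver, rose 1.37-fold in DDE (limma adjusted p = 5.14e-05). Adrb3, a receptor of fat cells, was at least 2.33-fold lower in DDE and below background on all DDE arrays. Adrb3 passed the probe filter only through groups where it was high, so no p is given for it. The counts of this list include it. In PXDDE against DDE 2 rose and 2 fell, and against control 1 rose and 3 fell. Among all genes, 49.8% and 70.8% were called in these 2 comparisons. Against control the split turned to 3 rises and 0 falls with median centring and with no scaling, and to 2 and 0 in the deposited table. Adra1b stood 1.62-fold above control in PXDDE (limma adjusted p = 5.76e-07). Of 14 Notch pathway genes, set beside Dlk1, 13 were tested: 1 rose and 2 fell in DDE, 5 rose and 2 fell in PXDDE against DDE, and 3 rose and 3 fell against control. That last split was 9 rises and 1 fall with median centring and with no scaling, 6 and 2 with quantile normalisation, and 1 and 4 with normexp. The Notch counts stand beside 50.3%, 49.8% and 70.8% of all genes called in DDE against control, PXDDE against DDE and PXDDE against control. Jag1, a canonical ligand, was 1.35-fold higher in PXDDE than in DDE (limma adjusted p = 0.00183) and at -0.13 in DDE against control (limma adjusted p = 0.244), unlike Dlk1.

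Dlk1 lies in an imprinted cluster, and Meg3, a noncoding RNA expressed from the maternal allele, is its neighbour in mm9, with probes 84 kb apart. Meg3 stood at 0.07 ± 0.12 in control, -1.87 ± 0.13 in DDE and -1.1 ± 0.095 in PXDDE (SD, n = 4). It fell 3.83-fold in DDE (limma adjusted p = 8.75e-09) and was 1.71-fold higher in PXDDE than in DDE (limma adjusted p = 1.68e-05), still 2.25-fold below control (limma adjusted p = 1.78e-07). Mirg, from the same cluster, fell 1.8-fold in DDE (limma adjusted p = 0.00109) and a further 1.62-fold in PXDDE against DDE (limma adjusted p = 0.00368). Of 16 imprinted genes listed, 10 were tested: 5 fell and 1 rose in DDE, 6 rose and 3 fell in PXDDE against DDE, and 4 rose and 5 fell against control. The rises in PXDDE, against DDE and against control, include Nnat, which passed the probe filter only through the PXDDE arrays. Shares of all genes stand beside these counts. Of all genes, 50.3%, 49.8% and 70.8% were called in these comparisons, in that order. Cdkn1c, a cell cycle inhibitor, fell 2.17-fold in DDE (limma adjusted p = 1.85e-08) and was 2.9-fold higher in PXDDE than in DDE (limma adjusted p = 1.13e-09). H19 fell in steps, 1.54-fold in DDE (limma adjusted p = 2.53e-05) and 1.76-fold in PXDDE against DDE (limma adjusted p = 3.08e-06).

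None of the tested neighbours of the other members was called both lower in DDE and higher in PXDDE against DDE. Beside Th, Ins2 was 2.4 higher in DDE than in control on the log2 scale (limma adjusted p = 1.22e-10). Beside Pnmt, the muscle gene Tcap, whose probe lies 2.67 kb away, fell by 1.41 in DDE (limma adjusted p = 5.95e-10) and by a further 0.45 in PXDDE against DDE (limma adjusted p = 6.96e-06). On the other side, 1.27 kb away, Pgap3 rose by 0.56 in DDE (limma adjusted p = 9.9e-05). Beside Dbh, Sardh rose by 0.39 (limma adjusted p = 0.00608), and beside Chga, Itpk1 rose by 0.67 (limma adjusted p = 0.0014) and Golga5 was at 0 (limma adjusted p = 0.972). Trmt6, beside Chgb, was at 0.25 (limma adjusted p = 0.111). Ascl2, Dbhos, AU019990 and Begain, on the remaining sides, were not tested.

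Genes of the adrenal cortex, the steroid-making layer around the medulla, moved with the members. Of 14 listed, 13 were tested: 9 fell and 1 rose in DDE, with a median of -0.663, where 26.3% of all genes fell and 24% rose. In PXDDE against DDE 10 rose and 2 fell, with a median of 1.13, where 20.2% of all genes rose and 29.6% fell. The 9 falls and 10 rises include Cyp11a1, Cyp11b1 and Mgarp. These were below background on every DDE array and passed the probe filter only through the other groups. Star stood at 2.14 ± 0.031 in control, -3.26 ± 0.049 in DDE and 3.18 ± 0.045 in PXDDE (SD, n = 4). It fell 42.4-fold in DDE (limma adjusted p = 2.66e-15) and was 87.0-fold higher in PXDDE than in DDE (limma adjusted p = 7.48e-16). Cyp11b1, which completes corticosterone, was at least 29.3-fold lower in DDE. It passed the probe filter only through groups where it was high, so no p is given for this fall. Cyp21a1, the 21-hydroxylase, was 16.3-fold lower in DDE (limma adjusted p = 1.07e-12). Hsd3b1, which converts pregnenolone to progesterone, was 45.1-fold lower (limma adjusted p = 7.39e-13). Akr1b7 went the other way, 1.93-fold up (limma adjusted p = 1.34e-08).

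Against control the cortex genes and the members parted. In PXDDE 9 of the 13 cortex genes were higher than in control and 0 lower (limma at the same threshold). Among all genes 31.5% were called higher and 39.3% lower, a share called in either direction of 70.8%. No cortex gene was lower at an unadjusted p under 0.05, and 0 were lower under the 6 other scalings too. All 6 members were lower on the scale used here, and Th and Chga turned above 0 under 2 of those scalings. Star was 2.05-fold above control (limma adjusted p = 1.94e-09), Cyp11b1 2.14-fold (limma adjusted p = 3.39e-08) and Cyp21a1 1.79-fold (limma adjusted p = 1.74e-07). Nr5a1, the regulator of steroidogenic cells, was 1.54-fold above control (limma adjusted p = 8.67e-07). The summed linear level of the 13 genes, in multiples of the 75th percentile, ran from 194 to 213 on control, 199 to 211 on DDE and 225 to 234 on PXDDE arrays, a sum set mostly by its brightest probes, Fdx1 above all, and not by the genes that were lost. That of the 6 members ran from 5.79 to 5.88, from 1.11 to 1.25 and from 4.28 to 4.64. Cyp11b2, the aldosterone synthase of the outer cortex, was on no array above background. What part adrenal RNA of either layer has in these levels was not tested.

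**Figure D5:**
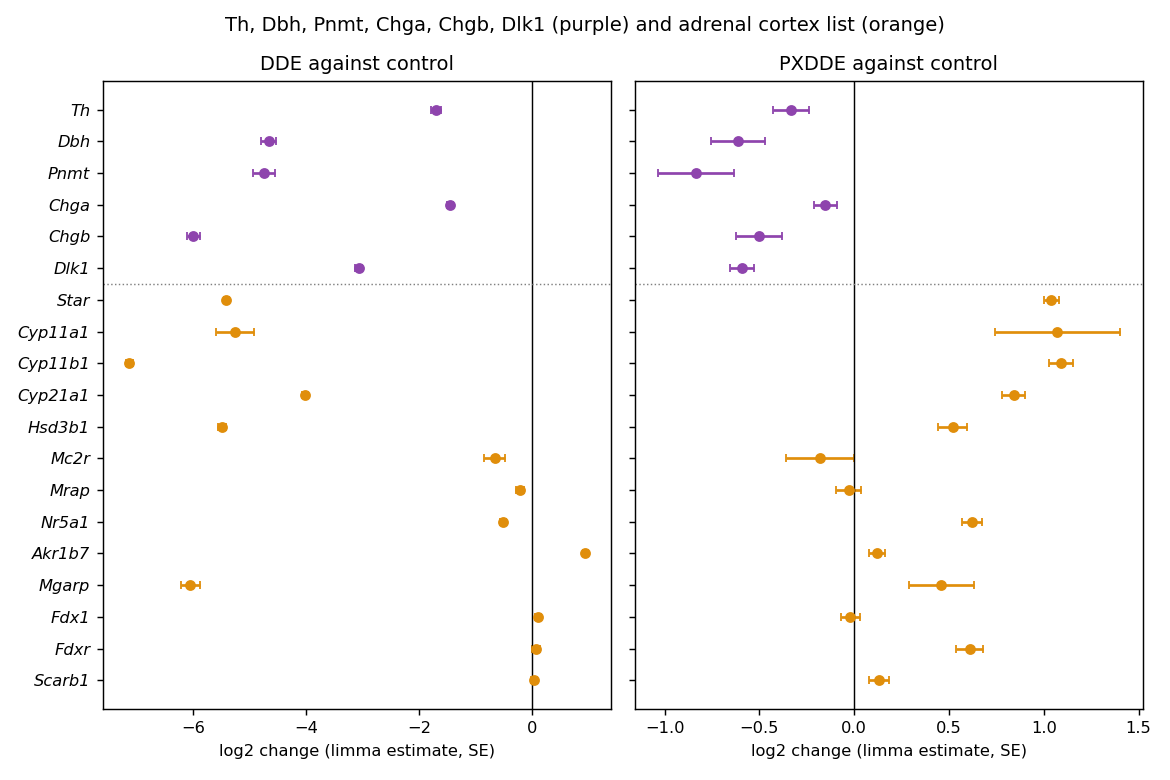
Fitted log2 change ± SE of the 6 genes and the 13 adrenal cortex genes in DDE against control (left) and PXDDE against control (right), on axes of different range. Changes of genes below background in DDE, such as Chgb and Cyp11b1, are fitted values and not bounds; all 6 genes lie below 0 on the right, where 9 cortex genes were called higher and Mc2r, Mrap and Fdx1 lie just below 0, not called.

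Markers of other cells also moved with the groups, and their part in the results was not tested. The counts of all marker lists that follow stand beside the shares of all genes called. These were 26.3% lower and 24% higher in DDE against control, and 20.2% higher and 29.6% lower in PXDDE against DDE. In PXDDE against control they were 31.5% higher and 39.3% lower. Of 10 neuron markers 6 were tested, and Prph and Gap43 were on no array above background. Uchl1 (3.35-fold lower, limma adjusted p = 3.23e-07) and Stmn2 (1.98-fold lower, limma adjusted p = 0.000187) fell in DDE and no neuron marker rose. Their summed level was 1.4 to 1.63 on control arrays, 1.03 to 1.21 on DDE arrays and 1.04 to 1.13 on PXDDE arrays, where the members were again high. Uchl1 stayed low in PXDDE, 3.41-fold below control (limma adjusted p = 8.24e-08). Of 9 Schwann and sustentacular cell markers, 6 were tested. Of these, 2 rose and 3 fell in DDE, and 3 rose and 3 fell in PXDDE against control. The summed level was 9.45 to 10.1, 9.59 to 10.3 and 9.57 to 11.4, set mostly by Erbb3, Fabp7 and Ngfr (1.81, 1.54 and 0.99 in control).

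Pancreatic islet markers, which share granule genes with chromaffin cells, rose in DDE, where the members were lowest: all 5 that were tested, of 9 listed, were called higher, Ins2 by 5.28-fold (limma adjusted p = 1.22e-10). Gcg and Sst among the 5 did not pass the probe filter through the control arrays, where they were low. The summed level of the islet markers was 2.02 to 2.25 in control, 10.3 to 11.8 in DDE and 15 to 17.4 in PXDDE. Of the 10 pancreatic acinar markers, 8 fell in DDE and 10 rose in PXDDE against DDE, Cpa1 by 8.89-fold (limma adjusted p = 9e-13), and the sum was 656 to 707, 494 to 560 and 2380 to 2430. The falls of Cpa1 and Cela3b in DDE (-0.23 and -0.21) turned to rises under 1 of the 6 other scalings. The kidney marker Kap, 1 of 2 tested of 8, was at least 4.45-fold lower in DDE and at least 7.31-fold higher in PXDDE against DDE. Kap passed the probe filter only through groups where it was high, so no p is given for it. Aqp2, the other one tested, went the other way without a call. Its log2 change was 0.3 in DDE against control and -0.26 in PXDDE against DDE. The kidney sum was 0.319 to 0.387, 0.216 to 0.307 and 0.429 to 0.509.

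Of 8 adipocyte markers, 4 fell and 2 rose in DDE, and 3 rose and 1 fell in PXDDE against DDE. Adipoq fell 4-fold (limma adjusted p = 2.17e-10) and was then 3.26-fold higher (limma adjusted p = 6.52e-10), and the sum was 75.2 to 81.7, 65.3 to 71.6 and 47.3 to 55.8. This sum is set mostly by Cidec, Fabp4 and Cfd, at 4.99, 4.33 and 4.3 in control, and not by Adipoq, at -0.48. All 8 skeletal muscle markers fell in DDE and again in PXDDE against DDE, with sums of 289 to 302, 109 to 124 and 81.6 to 91.8. The fetal liver and hepatoblast markers, 7 tested of 8, had 3 falls in DDE, and 1 rise and 4 falls in PXDDE against DDE. Their sums of 11.7 to 11.9, 8.54 to 9.19 and 5.82 to 6.14 stepped down, unlike Dlk1. These sums are set mostly by the brightest genes, H19 and Afp. Krt19 was the 1 rise, by 0.45 in PXDDE against DDE (limma adjusted p = 0.00476), and Igf2 was called in neither comparison. The 10 hepatocyte markers had 3 rises and 3 falls in DDE, with sums of 3640 to 4000, 3310 to 3490 and 2970 to 3230. The falls of Alb and Ahsg among them turned to rises under 2 of the 6 other scalings.

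The genes most like the members were sought by the root mean square difference, over the 12 arrays, between each gene's centred levels and the members' mean profile. The 6 genes make up that profile and were chosen on the DDE arrays, so their own distances only describe how much they differ among themselves: 0.106 for Dlk1, 0.272 for Pnmt, 0.274 for Dbh, 0.56 for Th, 0.642 for Chga and 1.17 for Chgb. Levels below an array's floor were set to it, as on the DDE arrays for Dbh, Pnmt and Chgb. Chgb, whose drop in DDE was larger than the mean of the 6, lay farthest off among them. Outside the 6, the nearest were Prm1 (0.337), Ly6d (0.405), Adipoq (0.411), Pnpla5 (0.42), Pla2g5 (0.425), Akr1cl (0.466), Pgbd5 (0.499), Scg2 (0.504), Otop1 (0.516) and Rims4 (0.524). Prm1, protamine 1, was at -0.75 ± 0.12 in control, -3.22 ± 0.16 in DDE and -1.55 ± 0.11 in PXDDE (SD, n = 4). Its order of groups was that of each member. Pla2g5, Akr1cl, Scg2 and Rims4 differed from the members in standing above control in PXDDE, by 0.51, 0.46, 0.29 and 0.69 on the log2 scale. Scg2 was the 1 granule gene among the 10.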

How the data were processed

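Liver RNA was labelled with Cy3 and hybridised to one-colour Agilent arrays. The deposited scanner files hold an intensity for each spot, extracted per the file headers with Agilent Feature Extraction 11.5.1.1. The value matrix the authors deposited is on a log2 scale, found by setting each column against its array (correlation 0.9949 to 0.9964 across probes). Its column medians were 5.335, 5.3403, 5.336 and 5.3349 in control, 5.3291, 5.3441, 5.3243 and 5.3279 in DDE, and 5.3461, 5.3349, 5.3441 and 5.3479 in PXDDE. How it was scaled and whether it was background corrected is not given in the sources used here; the submitters' processing notes also name RMA and limma. It served as an alternative.

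Here, the processed signal was divided by each array's 75th percentile and put on the log2 scale. Of 62976 spots, 3671 controls were left out. The 102 to 177 outlier spots per array were left out only where the probe had another spot that was not an outlier. A probe was kept (27098 of 56605) if it was well above background on all 4 arrays of a group. The brightest kept probe stood for its gene, which sets probes of 1 gene beside each other. Gene names are those of the array design. The 18678 genes were tested in 1 fit over 12 arrays with limma 3.58.1 (R 4.3.3, data.table, version 1.17.8), with 9 residual degrees of freedom, eBayes and Benjamini-Hochberg adjustment, and called at an adjusted p under 0.05. The fit was tested on simulated data. A fold written as at least sets the brighter group's mean against the floor, or against the probe's own level where that is higher. Levels below the floor entered the fit as they were, so p-values of genes below background in a group rest in part on them. Counts over lists, and the shares of all genes beside them, include genes that passed the probe filter only through groups where they were high.

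The 6 genes and the 16 lists were chosen with earlier results of these data known. The genes named are the 6, up to 6 called genes with the smallest p of each pathway list and of the cortex list, up to 2 of other cell type lists, the 10 genes most like the 6, and chromosome neighbours. The text gives some of these, picked after their values were seen. Some listed genes are not reported here. No list test was run. Same-numbered arrays did not deviate together (12 correlations from -0.344 to 0.131, 1 above 0.1), so numbers were not taken as pairs. No pair of arrays in a group was near identical (highest correlation 0.9974). Alternatives were other scalings, background correction, probe filters, averaged probes per gene, trended moderation, fewer groups in the fit, outlier spots kept, blocks, each array left out and, added after the data were seen, no scaling.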

Additional observations from a re-analysis of the deposited data

Results flagged for a closer look

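Of 27 sets of 4 arrays, 1 for each probe of the 6 genes in each group, 2 held an array whose gap to its nearest neighbour took up more of the set's range than Dixon's 95% limit allows for 4 values. Chance flags about 1 in 20 such sets. For Pnmt, control array 1 stood at -1.26 with the others between -1.08 and -1.04, a share of 0.838. That array lies nearer to the PXDDE arrays than the other control arrays do, and the groups still did not overlap. For Dbh probe 1673, control array 2 stood at -4.99 with the others between -6.4 and -6.2, a share of 0.856, and all 4 values are below background.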

How the results depend on the processing

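Leaving out each array in turn moved PXDDE against control to between -0.37 and -0.27 for Th, -0.69 and -0.52 for Dbh, -0.93 and -0.75 for Pnmt, -0.54 and -0.47 for Chgb and -0.61 and -0.57 for Dlk1, all past the threshold. These fits share control arrays with the choice of the genes, so they are not independent of it either. Chga ran from -0.17 to -0.13 (limma adjusted p = 0.0206 to 0.0964) and missed the threshold without control array 1 or 4 or PXDDE array 1, 3 or 4. Chga also missed it with normexp (-0.11, limma adjusted p = 0.0853), with no filter on dim probes (-0.15) and with the replicate number as a block (-0.15, limma adjusted p = 0.059). The replicate block ended no other call of the 6 genes. Median centring gave Th 0.04 and Chga 0.22, both reversed, and Dbh -0.24, Pnmt -0.46 and Chgb -0.13, which missed the threshold. With no scaling, Th was at 0.06 and Chga at 0.24, both reversed, and Dbh at -0.22, Chgb at -0.11 and Dlk1 at -0.20 missed it. The deposited table left Dbh at -0.34 (limma adjusted p = 0.0767). The cause was not tested, except that these 2 scalings raise all genes. Median centring moved the share of called genes that were higher from 47.7% to 81.3% in DDE against control, from 40.6% to 66.3% in PXDDE against DDE and from 44.5% to 73.1% in PXDDE against control. With no scaling it was 77.3%, 75.6% and 74.8%, and with quantile normalisation 52.2% in PXDDE against DDE. With no filter on dim probes, 14074 genes were called in PXDDE against DDE in place of 9302, and 21766 in PXDDE against control in place of 13230. Counts of short lists moved. Regulators called in DDE against control were 5, with 8 under no filter, 2 under the strict filter (above background on all 12 arrays) and 3 to 6 with an array left out (3 without control array 1 or 3). In PXDDE against DDE they were 5, with 3 under quantile normalisation, 2 under the strict filter and 3 to 5 with an array left out (3 without DDE array 3 or PXDDE array 2, 3 or 4). In PXDDE against control they were 3, with 6 under normexp and 8 under no filter. Adrenergic receptors called in DDE against control were 2, with 4 under median centring and 1 under the strict filter. In PXDDE against control they were 4, with 2 in the deposited table and 2 to 5 with an array left out (2 without control array 1). Notch genes called in PXDDE against DDE were 7, with 4 under normexp, 4 with slide as a block and 4 to 7 with an array left out (4 without PXDDE array 3). In PXDDE against control they were 6, with 10 under median centring and 10 with no scaling. The 7 catecholamine genes called in DDE against control became 4 without control array 2, in a range of 4 to 8. Changes of the members in DDE kept their direction under every setting run, but normexp, whose offset of 50 lifts dim spots, brought Dbh to -1.49, Pnmt to -2.03, Chgb to -3.55 and Dlk1 to -1.91 on the log2 scale. The strict filter gives no value for Dbh, Pnmt and Chgb. With 4 arrays a group and these 3 genes below background in DDE, their loss there has only a lower bound.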
